A study of Mus musculus with 6 samples.

Results

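Lysosomes are acidic organelles in which hydrolytic enzymes break down proteins, lipids, glycans, and nucleic acids delivered by endocytosis and autophagy, and membrane proteins of the lysosome line it, move ions, and export the products. Most of the enzymes reach it through mannose 6-phosphate receptors, and the transcription factor TFEB with its relatives switches many of their genes on together. In nerves, Schwann cells (SCs) use lysosomes and autophagy to digest myelin after injury, and inherited loss of several of these enzymes damages peripheral or central myelin. The genes described here are 33 of the 55401 genes in the deposited count table, namely 6 lysosomal membrane proteins, 26 soluble enzymes and cofactors, and *Tfeb*. They were chosen by name, and each was found as 1 row of the table through its Ensembl identifier and symbol.

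The study asked what the guidance receptor Plexin-B1 does in SCs, and its bulk RNA-seq compares primary SCs of WT and *Plxnb1-/-* mice, with 3 libraries from each genotype. *Plxnb1-/-* mice carry *Plxnb1 tm1Matl*, a gene trap with a transmembrane domain, lacZ, and neo placed in the *Plxnb1* locus, which every cell of the mouse carries and not SCs alone. The lines were kept on C57BL/6, and the study in general took both WT and *Plxnb1+/-* littermates as controls, whereas the labels of these libraries say WT. Cells of both genotypes came from dorsal root ganglia of adult mice whose exact age and sex are not given in the sources used here. In both groups, SCs were enriched in medium with 2 μM forskolin, 10 nM neuregulin, and 10% fetal bovine serum, fibroblasts were depleted with an antibody to Thy1, and cells of passages 3 to 5 with a purity above 80% were used. The sources used here do not say whether libraries of a genotype came from separate animals, so that the tests measure the spread between these libraries.

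Total counts were 63883476, 59252048, and 70967747 in WT replicates 1, 2, and 3 and 77280964, 72461964, and 69385956 in *Plxnb1-/-* replicates 1, 2, and 3. All 33 lysosomal genes were among the 22318 genes tested, those that reached 2 counts in 5 or more of the 6 libraries, and the fewest counts of any of them in a library were 536, for *Idua*. Values are given as CPM, in which each library is brought to a common size by the TMM method, always in the order of replicates 1, 2, and 3. Genes are ranked against each other only as CPM per kilobase of exon. Calls are those of edgeR's quasi-likelihood test across all tested genes, at an adjusted p under 0.05 together with a log2 fold change of more than 0.25 in size.

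The genotype labels were checked first on the targeted gene. *Plxnb1* measured 61.8, 45.4, and 96.4 CPM in the WT libraries and 13.1, 16.6, and 18.6 CPM in the *Plxnb1-/-* libraries. Every *Plxnb1-/-* library was lower than every WT library, as the labels say, with a log2 fold change of −2.08 (standard error 0.25, edgeR adjusted p = 0.0449). The call itself was lost in 7 of 14 alternative analyses, among them 4 of the 6 with a library left out, and the fold change kept its sign.

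The lysosomal genes as a sum hardly differed between the genotypes. Their summed level was 7171, 7587, and 7375 CPM in the WT libraries and 7126, 7578, and 7426 CPM in the *Plxnb1-/-* libraries. The lowest sums were those of replicate 1 in both genotypes, the highest those of replicate 2, and the genotypes overlapped widely, with a mean of 7378 ± 208 CPM over the WT and 7377 ± 230.1 CPM over the *Plxnb1-/-* libraries (SD, n = 3). In the unnormalized counts these genes took between 0.718% and 0.758% of a library. Sum and share rest largely on *Ctsb*, *Ctsd*, *Psap*, and *Lamp1*, which carried 52.01% of the summed CPM.

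Gene by gene, 17 of the 33 had a log2 fold change above 0 and 16 below 0, with a median of 0.01, beside 51.5% above 0 and a median of 0.0050 over all tested genes. Without WT replicate 2, 22 were above 0 and 11 below, with a median of 0.03. Of the 22781 genes then tested, 12076 were above 0, with a median of 0.0094. With edgeR, 0 of the 33 were called, where 0.0358% of all tested genes were, and the lowest adjusted p was 0.273. DESeq2, which called 1.50% of all tested genes under the same cutoffs, also called 0 of them, with a lowest adjusted p of 0.0601. An unadjusted p below 0.05 in edgeR was reached by 4 of the 33 (12.1%), 1 of them higher and 3 lower in *Plxnb1-/-* SCs. Among all tested genes 13.7% reached it, 6.95% higher and 6.78% lower, and among the 10159 genes with a mean of at least 10 CPM, a level that all 33 have, 19.6% did. That comparison group was chosen after its values were seen.

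Libraries of the genotypes did not overlap for 8 of the 33 genes (24.2%), 4 with higher and 4 with lower values in *Plxnb1-/-* SCs. The same held for 19.7% of all tested genes, 9.30% with higher and 10.4% with lower values, and for 25.5% of those with at least 10 CPM, so the share among the lysosomal genes was near the background. The median size of the log2 fold change, regardless of sign, was 0.05 for the list, against 0.12 for all tested genes and 0.07 for those with at least 10 CPM. For 18 of the 33 genes, the means of the genotypes lay closer together than the larger of their SDs. Among the *Plxnb1-/-* libraries, replicate 2 held the highest value for 22 of the 33 genes and replicate 1 the lowest for 16, while among the WT libraries replicate 1 held the lowest for 18.

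**Figure D1:**
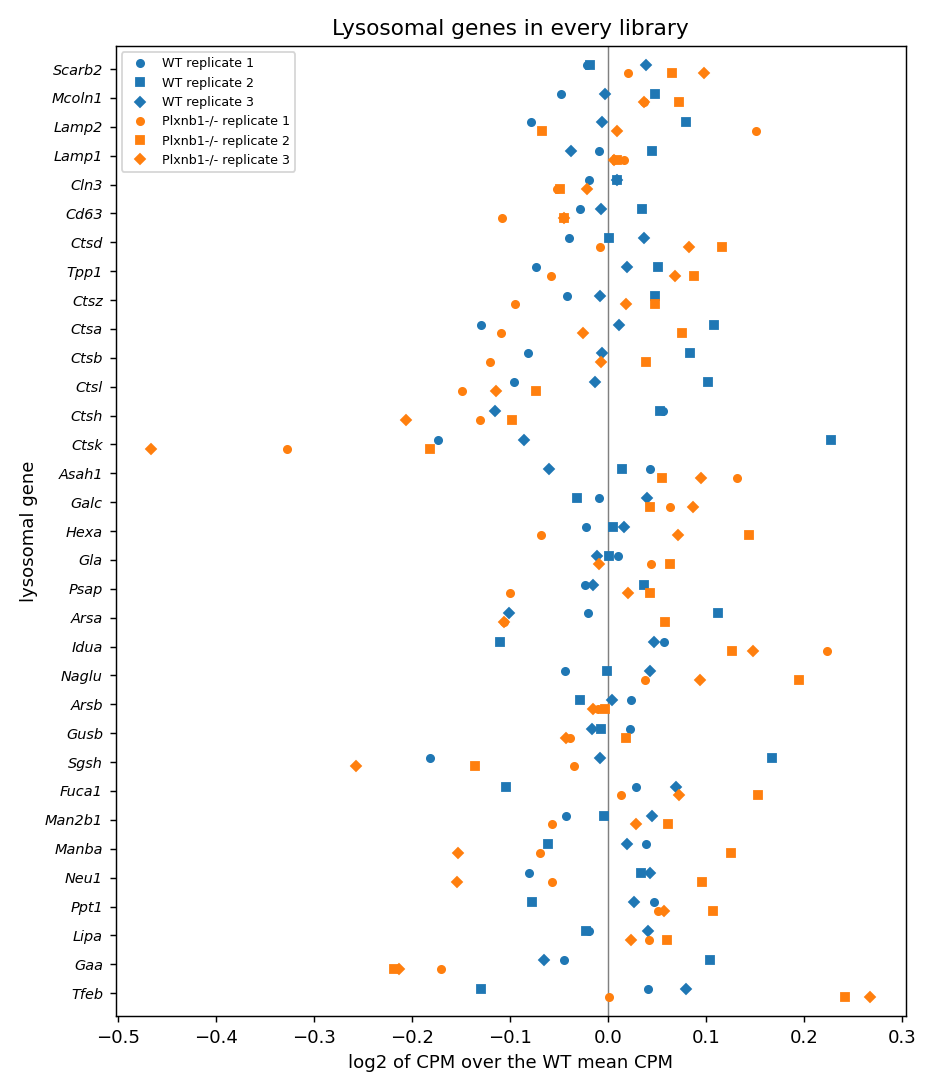
Level of each lysosomal gene in each library, as log2 of its CPM over the mean CPM of the WT libraries, with WT libraries in blue and *Plxnb1-/-* libraries in orange, genes ordered by role. Most genes stay close to 0 in all libraries, and the widest spread is that of *Ctsk*, with WT replicate 2 farthest to the right.

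The precision of the fit allows a bound on these differences. For 27 of the 33 genes (81.8%), the 95% interval of the log2 fold change lay wholly between −0.25 and 0.25, as it did for 33.6% of all tested genes and 69.2% of those with at least 10 CPM. The 6 genes whose interval reached past 0.25 in size were *Tfeb* and *Idua* upward and *Ctsk*, *Gaa*, *Sgsh*, and *Ctsh* downward, and for 0 of the 33 did the whole interval lie past it. These intervals are for single genes and are not adjusted for the number of genes.

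**Figure D2:**
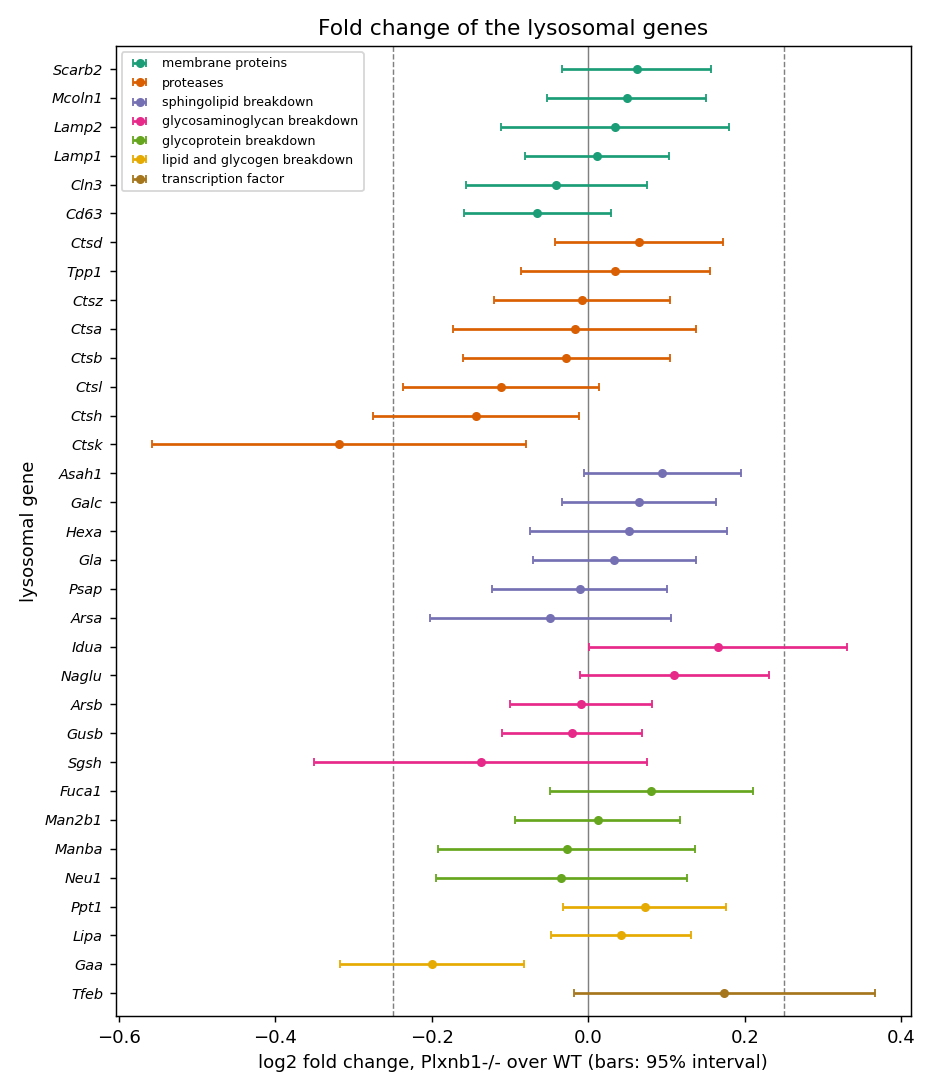
Log2 fold change of *Plxnb1-/-* over WT SCs from edgeR for the 33 lysosomal genes, with 95% intervals as bars, colors for the role of the product, and dashed lines at −0.25 and 0.25. Intervals of 27 genes stay between the dashed lines, and *Ctsk* has the lowest fold change at −0.32.

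Among the membrane proteins, *Lamp1* and *Lamp2* encode the heavily glycosylated proteins that coat the inner face of the lysosomal membrane, and *Lamp1* had the highest level per kilobase of the 6, 223 CPM per kilobase in WT SCs. *Lamp1* measured 594, 617, and 582 CPM in the WT libraries and 605, 602, and 600.4 CPM in the *Plxnb1-/-* libraries. The *Plxnb1-/-* libraries lay within the range of the WT libraries and close to each other, and the log2 fold change was 0.01 (95% interval −0.08 to 0.10, edgeR adjusted p = 0.935), which turned to −0.01 without WT replicate 3. *Cd63*, a tetraspanin of late endosomes, lysosomes, and exosomes, measured 408, 427, and 415 CPM in the WT libraries and 387, 404, and 404 CPM in the *Plxnb1-/-* libraries. All *Plxnb1-/-* values were below all WT values, by a small margin, with a log2 fold change of −0.07 (95% interval −0.16 to 0.03, edgeR adjusted p = 0.515). *Cln3*, whose product is a lysosomal membrane protein lost in juvenile Batten disease, measured 17.5, 17.9, and 17.9 CPM in the WT libraries and 17.1, 17.2, and 17.5 CPM in the *Plxnb1-/-* libraries. Here too the genotypes did not overlap, but the nearest libraries were almost equal, and the log2 fold change was −0.04 (95% interval −0.16 to 0.08, edgeR adjusted p = 0.766). The other members of the group had log2 fold changes of 0.06 for *Scarb2*, the receptor that carries glucocerebrosidase to lysosomes, 0.05 for *Mcoln1*, a calcium channel of the lysosome, and 0.03 for *Lamp2*.

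Proteases form the largest group. *Ctsd*, the aspartic protease cathepsin D, had the highest level per kilobase of the whole list, 423 CPM per kilobase in WT SCs. *Ctsd* measured 968, 996, and 1020.4 CPM in the WT libraries and 989, 1078, and 1053 CPM in the *Plxnb1-/-* libraries. Its genotypes overlapped, and the log2 fold change was 0.06 (95% interval −0.04 to 0.17, edgeR adjusted p = 0.574), or 0.10 without *Plxnb1-/-* replicate 1 and 0.04 without *Plxnb1-/-* replicate 2. The level is uncertain, because 34.4% of its exon bases are shared with Gm49369, a gene model on the same strand that itself measured 369, 374, and 388 CPM in the WT libraries and 382, 415, and 405 CPM in the *Plxnb1-/-* libraries. This neighbor had a log2 fold change of 0.09.

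*Ctsk* encodes cathepsin K, a cysteine protease best known for digesting collagen, and it had the lowest fold change of the list. *Ctsk* measured 66.1, 87.3, and 70.3 CPM in the WT libraries and 59.5, 65.8, and 54.0 CPM in the *Plxnb1-/-* libraries. WT replicate 2 stood highest, all *Plxnb1-/-* libraries were below all WT libraries, and *Plxnb1-/-* replicate 2 came just under WT replicate 1. The log2 fold change was −0.32 (95% interval −0.56 to −0.08, edgeR adjusted p = 0.293, DESeq2 adjusted p = 0.0845). Without WT replicate 2 it was −0.19, and the other omissions of a library gave values down to −0.40.

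*Ctsh*, a cysteine protease that also trims peptides from their amino end, measured 48.5, 48.4, and 43.1 CPM in the WT libraries and 42.6, 43.6, and 40.5 CPM in the *Plxnb1-/-* libraries. *Plxnb1-/-* replicate 2 lay above WT replicate 3, so the genotypes overlapped, and the log2 fold change was −0.14 (95% interval −0.28 to −0.01, edgeR adjusted p = 0.339). *Ctsl*, the endopeptidase cathepsin L, measured 384, 440.1, and 406 CPM in the WT libraries and 369.8, 389.8, and 379 CPM in the *Plxnb1-/-* libraries. WT replicate 2 was again the highest library and *Plxnb1-/-* replicate 2 exceeded WT replicate 1, with a log2 fold change of −0.11 (95% interval −0.24 to 0.01, edgeR adjusted p = 0.404), or −0.05 with WT replicate 2 left out. The remaining proteases stayed closer to 0, with log2 fold changes of 0.03 for the tripeptidyl peptidase *Tpp1*, −0.01 for *Ctsz*, −0.02 for *Ctsa*, the protective protein of neuraminidase, and −0.03 for *Ctsb*, the cysteine protease cathepsin B. In all, 2 of the 8 proteases were above 0 and 6 below.

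Sphingolipid breakdown matters to cells that make myelin, since galactosylceramide and sulfatide are major lipids of the sheath. *Galc*, which cleaves galactosylceramide and is lost in Krabbe disease, measured 38.9, 38.3, and 40.2 CPM in the WT libraries and 40.9, 40.3, and 41.6 CPM in the *Plxnb1-/-* libraries. The genotypes did not overlap, although *Plxnb1-/-* replicate 2 and WT replicate 3 were nearly equal, and the log2 fold change was 0.06 (95% interval −0.03 to 0.16, edgeR adjusted p = 0.542). *Asah1*, the acid ceramidase, measured 211, 207, and 196 CPM in the WT libraries and 224, 212, and 219 CPM in the *Plxnb1-/-* libraries. Every *Plxnb1-/-* library was above every WT library, with a log2 fold change of 0.09 (95% interval −0.01 to 0.19, edgeR adjusted p = 0.385). *Psap*, the precursor of the saposins that present lipids to these enzymes, had the highest level per kilobase of the group at 341 CPM per kilobase in WT SCs. It measured 919.7, 959, and 925 CPM in the WT libraries and 872, 963, and 948 CPM in the *Plxnb1-/-* libraries. The spread among the *Plxnb1-/-* libraries was wider than the gap between genotypes, and the log2 fold change was −0.01 (95% interval −0.12 to 0.10, edgeR adjusted p = 0.945), which turned to 0.01 without WT replicate 2 and to 0.03 without *Plxnb1-/-* replicate 1. *Hexa*, the alpha subunit of hexosaminidase lost in Tay-Sachs disease, had a log2 fold change of 0.05, *Gla*, the galactosidase lost in Fabry disease, 0.03, and *Arsa*, the sulfatase of sulfatide, −0.05.

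Enzymes that degrade glycosaminoglycans, the sugar chains of proteoglycans, included the least abundant gene of the list. *Idua*, the iduronidase lost in Hurler syndrome, measured 10.3, 9.16, and 10.2 CPM in the WT libraries and 11.5, 10.8, and 10.9 CPM in the *Plxnb1-/-* libraries. All *Plxnb1-/-* libraries were above all WT libraries, among which replicate 2 was lowest, and the log2 fold change was 0.17 (95% interval 0.00 to 0.33, edgeR adjusted p = 0.362). *Naglu*, which removes N-acetylglucosamine from heparan sulfate, measured 36.5, 37.6, and 38.8 CPM in the WT libraries and 38.6, 43.1, and 40.2 CPM in the *Plxnb1-/-* libraries. Its genotypes overlapped by a narrow margin, since *Plxnb1-/-* replicate 1 lay just under WT replicate 3, with a log2 fold change of 0.11 (95% interval −0.01 to 0.23, edgeR adjusted p = 0.399), or 0.07 without *Plxnb1-/-* replicate 2. *Sgsh*, the sulfamidase that acts on the same chains, measured 16.7, 21.3, and 18.8 CPM in the WT libraries and 18.5, 17.2, and 15.8 CPM in the *Plxnb1-/-* libraries. Both genotypes spread widely and overlapped, and the log2 fold change was −0.14 (95% interval −0.35 to 0.07, edgeR adjusted p = 0.544). It depended on single libraries, with −0.04 without WT replicate 2, −0.08 without *Plxnb1-/-* replicate 3, and −0.22 without WT replicate 1. *Gusb*, the glucuronidase, was the most abundant of the group per kilobase, with 23.0 CPM per kilobase in WT SCs. It measured 106, 104, and 103 CPM in the WT libraries and 102, 106, and 102 CPM in the *Plxnb1-/-* libraries. *Plxnb1-/-* replicates 1 and 3 were slightly below all WT libraries, and *Plxnb1-/-* replicate 2 lay within the WT range. The log2 fold change of *Gusb* was −0.02 (−0.04 to −0.01 with a library left out), and *Arsb*, a sulfatase of dermatan and chondroitin sulfate, had −0.01.

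All 4 enzymes that strip glycans from glycoproteins had genotypes that overlapped. *Fuca1*, the fucosidase and the most abundant of them per kilobase, measured 138, 126, and 142 CPM in the WT libraries and 137, 151, and 143 CPM in the *Plxnb1-/-* libraries. WT replicate 2 was the lowest library and *Plxnb1-/-* replicate 2 the highest, the others overlapped, and the log2 fold change was 0.08 (95% interval −0.05 to 0.21, edgeR adjusted p = 0.560), or 0.035 without WT replicate 2 and 0.0435 without *Plxnb1-/-* replicate 2. The sialidase *Neu1* had a log2 fold change of −0.03, and the mannosidases *Man2b1* and *Manba* had 0.01 and −0.03.

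Among the enzymes of glycogen and lipids, *Gaa* encodes the acid glucosidase that degrades glycogen and is lost in Pompe disease. *Gaa* measured 125, 139, and 124 CPM in the WT libraries and 115, 111, and 111 CPM in the *Plxnb1-/-* libraries. WT replicate 2 was the highest library, and all *Plxnb1-/-* libraries were close together and below all WT libraries. The log2 fold change was −0.20 (95% interval −0.32 to −0.08), with the lowest adjusted p of the list, 0.273 from edgeR and 0.0601 from DESeq2, and it was −0.14 without WT replicate 2. *Ppt1*, which takes palmitate off proteins and had the highest level per kilobase of the group, measured 118, 108, and 116 CPM in the WT libraries and 118, 123, and 118 CPM in the *Plxnb1-/-* libraries. *Plxnb1-/-* replicate 1 was only slightly above WT replicate 1, so that the genotypes did not overlap, with a log2 fold change of 0.07 (95% interval −0.03 to 0.18, edgeR adjusted p = 0.519), or 0.04 without WT replicate 2. *Lipa*, the acid lipase that frees cholesterol from its esters, had a log2 fold change of 0.04.

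*Tfeb*, the transcription factor of the list, had the highest fold change with all libraries in, just above *Idua*. It measured 21.0, 18.6, and 21.5 CPM in the WT libraries and 20.4, 24.1, and 24.5 CPM in the *Plxnb1-/-* libraries. *Plxnb1-/-* replicates 2 and 3 were above all WT libraries, but *Plxnb1-/-* replicate 1 lay within the WT range, and the log2 fold change was 0.17 (95% interval −0.02 to 0.37, edgeR adjusted p = 0.400). With a library left out it lay between 0.117 and 0.252, and *Idua* was higher in 4 of these 6 fits. TFEB is controlled largely by phosphorylation and its move into the nucleus, neither of which RNA-seq measures.

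Other genes of the pathway were taken from lists of related genes. Of 28 other lysosomal hydrolases and their cofactors, 21 had a log2 fold change above 0 and 7 below. Of them, edgeR called 1, *Hyal1*, which degrades hyaluronan, where it called 0.0358% of all tested genes. In this group 6 genes (21.4%) had an unadjusted p below 0.05 in edgeR and 6 had no overlap between genotypes, all of them higher in *Plxnb1-/-* SCs. Among all tested genes the shares were 13.7% and 19.7% in either direction, and 6.95% and 9.30% higher. Among those with a mean of at least 10 CPM they were 19.6% and 25.5% in either direction. DESeq2 also called 1 of the group, where it called 1.50% of all tested genes. *Hyal1* measured 25.1, 23.8, and 26.5 CPM in the WT libraries and 35.4, 41.0, and 38.7 CPM in the *Plxnb1-/-* libraries, a log2 fold change of 0.61 (edgeR adjusted p = 0.0262), and the lowest of the group was *Acp5* at −0.16. *Hyal1* lies 1.51 Mb from *Plxnb1* on the same chromosome, whereas *Ctsh* and *Hexa*, the nearest of the 33 genes, lie 19.0 and 49.5 Mb away, and whether its fold change comes from the altered locus was not tested. For the 18 subunits of the proton pump that acidifies lysosomes, 9 were above 0 and 9 below, from −0.10 for *Atp6v0c* to 0.26 for *Atp6v0e2*. Of 15 genes that tag or sort the enzymes, 8 were above 0 and 7 below, from −0.23 for the adaptor *Gga2* to 0.21 for the sorting receptor *Sort1*.

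Relatives of *Tfeb* and the mTORC1 machinery on the lysosomal surface, which restrains them, had 10 of 21 genes above 0, with *Mtor* highest at 0.15. The lowest was *Tfec* at −1.06, but it measured at most 0.205 CPM, where 3 counts correspond to between 0.0388 and 0.0506 CPM, so that this value is poorly determined. Of 24 autophagy genes, 15 were above 0 and 9 below, from −0.15 for the cargo receptor *Sqstm1* to 0.24 for *Optn*, and without WT replicate 2 it was 19 above and 5 below. Other lysosomal membrane proteins had 17 of 23 tested genes above 0, from −0.19 for the channel *Tpcn1* to 0.44 for the metal transporter *Slc11a1*. *Slc11a1* measured at most 1.52 CPM, and its log2 fold change had a standard error of 0.17. Of the 23, 5 (21.7%) had an unadjusted p below 0.05 in edgeR, beside 13.7% of all tested genes. Without WT replicate 2 it was 2 (8.70%), where 8.99% of all genes then tested had one. With all libraries in, 7 of the 23 (30.4%) had no overlap between genotypes, 6 of them higher. These 7 include the 5 with an unadjusted p below 0.05 in edgeR. Among all tested genes 19.7% had no overlap, 9.30% higher. *Lamp3*, *Lamp5*, and *Mcoln3* of the same list had too few counts to be tested. The 4 inhibitors of lysosomal proteases were all below 0, from −0.14 for *Serpinb6a* to −0.02 for *Cst3*, but 1 of them was above 0 without WT replicate 2. Among the 4, *Cst6* measured at most 0.424 CPM. Its log2 fold change of −0.06 had a standard error of 0.30, so that its sign is poorly determined. In these last 6 groups together edgeR called 0 of 105 genes (0.0358% of all tested genes), and DESeq2 called 0 (1.50%). An unadjusted p below 0.05 in edgeR was found for 14 (13.3%), near the 13.7% of all tested genes. Without WT replicate 2 it was 7 (6.67%), where 8.99% of all genes then tested had one.

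Markers of cell types were read in the same libraries, and their median log2 fold changes were 0.19 for SCs, 0.27 for macrophages, and −0.19 for fibroblasts, beside 0.01 for the lysosomal genes. The 14 SC markers summed to 3977, 3313, and 3963 CPM in the WT libraries and 4020.2, 4494, and 4612 CPM in the *Plxnb1-/-* libraries. WT replicate 2 was lowest, all *Plxnb1-/-* libraries were above all WT libraries, and 13 of the 14 markers had a log2 fold change above 0, 10 of them with an unadjusted p below 0.05 in edgeR (13.7% of all tested genes). Of the 14, 0 were called by edgeR (0.0358% of all tested genes) and 0 by DESeq2 (1.50%), and 4 had no overlap between genotypes (19.7%). *S100b* measured between 7.09 and 8.22 CPM, and no SC marker was at 0. Fewer cells of a type and less RNA per cell cannot be told apart in such bulk libraries.

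The 10 fibroblast markers summed to 19409, 23291, and 20049 CPM in the WT libraries and 17837, 18767, and 18383 CPM in the *Plxnb1-/-* libraries. WT replicate 2 was far above the other libraries, all *Plxnb1-/-* libraries were below all WT libraries, and 8 of the 10 had a log2 fold change below 0, of which 5 had an unadjusted p below 0.05 in edgeR (13.7% of all tested genes) and 5 no overlap between genotypes (19.7%, and 10.4% with lower values). By edgeR, which called 0.0358% of all tested genes, 0 were called. By DESeq2, which called 1.50% of all tested genes, 1 was called, *Col1a1*, with a log2 fold change of −0.30 and an adjusted p of 0.0258. *Col1a1* was the most abundant per kilobase, none was at 0, and SCs also express collagen genes. *Thy1*, the surface protein used to deplete fibroblasts, measured 429, 652, and 489.9 CPM in the WT libraries and 409.7, 409, and 384 CPM in the *Plxnb1-/-* libraries. In WT replicate 2, *Thy1*, *Ctsk*, *Gaa*, and *Ctsl* all had their highest value. So did *Ctsb*, *Ctsa*, *Ctsz*, *Lamp1*, *Cd63*, *Sgsh*, and *Arsa*, with log2 fold changes from −0.14 for *Sgsh* to 0.01 for *Lamp1*. The part of fibroblasts in the lower values of *Ctsk*, *Gaa*, and *Ctsl* in *Plxnb1-/-* SCs was not tested. With that library left out, *Ctsk*, *Gaa*, and *Ctsl* kept a negative but smaller log2 fold change, as given above, and 6 of the 10 fibroblast markers were below 0, with a median of −0.09, and 5 of the 10, in either direction, had an unadjusted p below 0.05, where 8.99% of all genes then tested had one.

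Macrophages are rich in lysosomes, and their 18 markers summed to 199, 189, and 163 CPM in the WT libraries and 231, 239.6, and 212 CPM in the *Plxnb1-/-* libraries. All *Plxnb1-/-* libraries were above all WT libraries, and 17 of the 18 markers had a log2 fold change above 0. None was called by edgeR (0.0358% of all tested genes) and 3 were by DESeq2 (1.50%), namely *Lyz2*, *C1qb*, and *Cx3cr1*, with 8 at an unadjusted p below 0.05 in edgeR (13.7%). The genotypes did not overlap for 7 of the 18 (38.9%), all higher, beside 19.7% of all tested genes, 9.30% higher. *Lyz2* was the most abundant per kilobase and measured 99.7, 89.8, and 79.5 CPM in the WT libraries and 114, 118, and 109.8 CPM in the *Plxnb1-/-* libraries. The other defining markers were lower than *Lyz2* but not at 0. *Mpeg1* measured 17.6, 19.4, and 15.3 CPM in the WT libraries and 21.5, 23.1, and 20.1 CPM in the *Plxnb1-/-* libraries. The pan-leukocyte gene *Ptprc* measured 1.16, 1.35, and 1.12 CPM in the WT libraries and 1.62, 1.55, and 1.18 CPM in the *Plxnb1-/-* libraries. *Cd68* is also on the list of other lysosomal membrane proteins. The part of macrophage RNA in the levels of the lysosomal genes was not tested.

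Markers of other cells had median log2 fold changes of 0.36 for neurons, −0.50 for endothelial cells, and 0.08 for mural cells, or 0.37, −0.22, and 0.04 without WT replicate 2. The 10 neuron markers summed to 165, 155, and 169 CPM in the WT libraries and 170.4, 177, and 197 CPM in the *Plxnb1-/-* libraries, of which *Tubb3*, also expressed outside neurons, made up most. All *Plxnb1-/-* sums were above all WT sums, by a small margin for *Plxnb1-/-* replicate 1, and 9 of the 10 genes had a log2 fold change above 0. The 6 endothelial markers summed to 73.5, 96.8, and 85.3 CPM in the WT libraries and 81.8, 77.05, and 77.6 CPM in the *Plxnb1-/-* libraries, mostly *Cdh5*, and the 6 mural markers to 1050.2, 1329.6, and 1165 CPM in the WT libraries and 1069, 1076, and 1027 CPM in the *Plxnb1-/-* libraries, mostly *Pdgfrb*. WT replicate 2 was highest for both sums, and 6 of the 6 endothelial genes were below 0 (5 of 6 without that library). By edgeR 0 of these 22 genes were called (0.0358% of all tested genes), and by DESeq2 0 (1.50%). An unadjusted p below 0.05 in edgeR was found for 2 of them (9.1%), beside 13.7% of all tested genes.

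**Figure D3:**
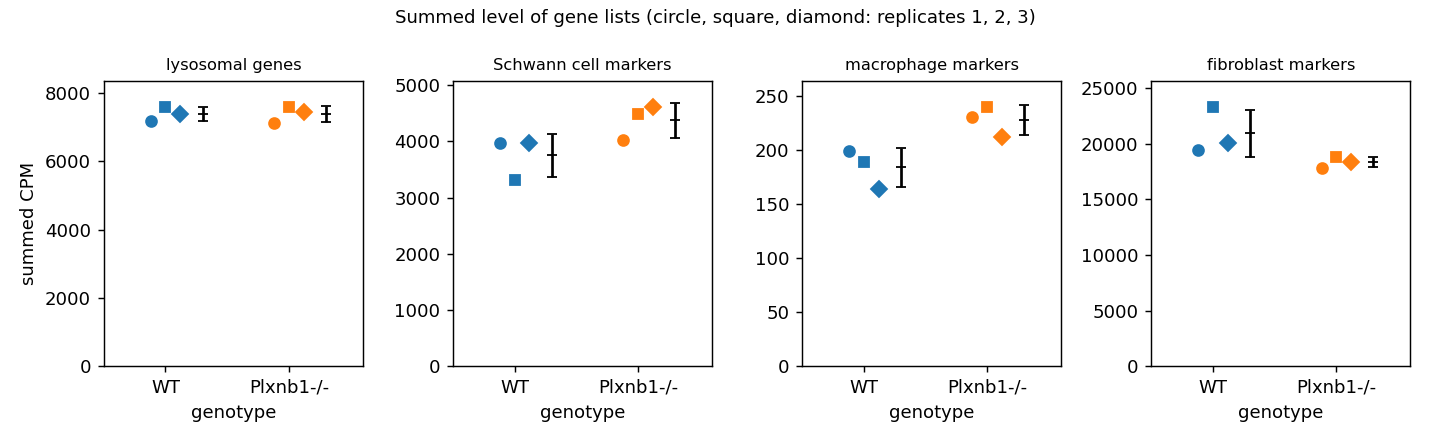
Summed CPM of the 33 lysosomal genes and of markers of SCs, macrophages, and fibroblasts in each library, with WT in blue, *Plxnb1-/-* in orange, and the mean ± SD of 3 libraries as black bars. The sums of the lysosomal genes overlap between genotypes, whereas the marker sums do not.

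A sequence feature that was not used to choose the listed genes was also counted. TFEB and its relatives bind the E-box CACGTG, and RefSeq promoters of GRCm38.p6 (250 bases before to 50 after the start) were searched for it. The letters read the same on both strands. In all, 30 of the 33 genes matched, with 35 promoters, and *Ctsb*, *Ctsh*, and *Asah1* did not. CACGTG stood in 11 of the 35 promoters, each of a different gene, and in 7.15% of all 32851 promoters. The longer form TCACGTGA, which contains the E-box, stood in 5 of the 35 and in 0.974% of all. The 11 genes with CACGTG had a median log2 fold change of −0.02, with 5 above 0, and the 19 without it had 0.03, with 11 above 0, so that both groups lay near 0. A match describes these letters only, and no match says nothing of TFEB binding.

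*Lamp1* had 4 copies of CACGTG in its promoter, the most of the listed genes, and windows of 30 bases around copies in the promoters of 7 genes are printed to show the shared letters, with TCACGTGA or CACGTG in capitals. They lie upstream of the RefSeq start and are written 5′ to 3′ on the strand of the gene. The windows of *Lamp1* (chr8:13159088-13159117, plus strand), *Gaa* (chr11:119267811-119267840, plus strand), and *Gla* (chrX:134601182-134601211, minus strand) lie outside the gene as GENCODE draws it. Those of *Mcoln1* (chr8:3500462-3500491, plus strand), *Naglu* (chr11:101070009-101070038, plus strand), *Cln3* (chr7:126583340-126583369, minus strand), and *Ctsd* (chr7:142387908-142387937, minus strand) overlap an exon of a longer GENCODE transcript.
Lamp1: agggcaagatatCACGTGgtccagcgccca
Gaa: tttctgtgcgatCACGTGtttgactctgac
Gla: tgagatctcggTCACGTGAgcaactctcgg
Mcoln1: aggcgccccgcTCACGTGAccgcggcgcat
Naglu: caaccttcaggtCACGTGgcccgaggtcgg
Cln3: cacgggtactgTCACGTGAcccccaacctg
Ctsd: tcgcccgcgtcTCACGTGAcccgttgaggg

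Exons of 14 of the 33 genes share bases with another gene. For most the other gene is on the opposite strand, as for *Arsb*, *Ctsl*, *Sgsh*, and *Arsa*, and although the library kit keeps the strand, the strand setting of the counting is not given in the sources used here. Reads of these genes and their neighbors may therefore be mixed or lost. *Ctsl* also shares bases with a pseudogene on its own strand.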

How the data were processed

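The deposited table holds counts per gene on exons, not normalized, which the authors made with featureCounts and GENCODE. It rests on mm10 alignments from Bowtie2 2.4.1, cleared of duplicates by SAMtools 1.10, of reads that had passed through Trim Galore 0.6.5. Also deposited were FPKM values, made by the authors, in which the length equals the span of the gene, within 1%, in between 99.451% and 99.474% of genes with at least 50 counts. Tools and versions are those of the submitters' processing notes and the study's methods. Here, 55141 of 55401 identifiers matched an older GENCODE release (GRCm38) used for symbols, positions, and exon lengths, which are unions over transcripts.

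Genotypes were compared with edgeR 4.0.16 under R 4.3.3 (TMM, quasi-likelihood test, a model of genotype alone, Benjamini-Hochberg adjustment over 22318 genes). The study names DESeq2, and DESeq2 1.42.0 was run as an alternative, as was limma 3.58.1 on log2(FPKM + 0.1) and log2(FPKM + 1). Standard errors come from the fold change and the F statistic, and 95% intervals use the total degrees of freedom. The fits were tested on simulated data. Other alternatives were other size factors, other filters on low counts, robust dispersion, no cutoff on the fold change, the replicate number as a block, and each library left out. Per-library values are given for the 5 highest and 5 lowest fold changes, the most abundant gene per kilobase of each role, genes without overlap between genotypes, genes with an unadjusted p below 0.01, *Lamp1*, and *Tfeb*. The genes and lists were chosen with earlier results of these data known. Floors of 3 counts cover counting error only. Tables were made with Python 3.11.15 and pandas 2.3.3.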

Additional observations from a re-analysis of the deposited data

How the results depend on the processing

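In every alternative run, 0 of the 33 lysosomal genes were called, with 0 also at an adjusted p below 0.05 without a cutoff on the fold change, and between 1 and 6 had an unadjusted p below 0.05. Their lowest adjusted p lay between 0.0601 (DESeq2) and 0.683 (without *Plxnb1-/-* replicate 3). The number with a log2 fold change above 0 was 17 with other size factors, filters, and DESeq2, 19 with limma on log2(FPKM + 0.1), and between 16 and 22 with a library left out, and the median lay between −0.01 and 0.03. Of the 18 genes given per library, 16 kept the sign of their fold change in all 15 alternatives. Limma on log2(FPKM + 1) gave values clearly smaller than the main ones for several genes, such as 0.0521 for *Tfeb*, 0.0539 for *Idua*, −0.0158 for *Cln3*, and 0.0314 for *Galc*. *Lamp1* changed sign without WT replicate 3 (−0.0073), and *Psap* without WT replicate 2 (0.0117) and without *Plxnb1-/-* replicate 1 (0.0295), and with a library left out *Lamp1* ran from −0.0073 to 0.0377 and *Psap* from −0.0382 to 0.0295.

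The number of all genes called was 8, with 335 by DESeq2, 296 with no filter on low counts, 3 by limma on log2(FPKM + 0.1), and between 4 and 25 with a library left out, the highest without WT replicate 2. The cause was not tested. The log2 fold change of *Plxnb1* was no longer called with at least 10 counts in 3 libraries (−2.08, adjusted p = 0.0648 from edgeR), robust dispersion (−2.08, adjusted p = 0.220), or limma on log2(FPKM + 0.1) (−1.86, adjusted p = 0.413), nor without WT replicate 1 (adjusted p = 0.0812), or *Plxnb1-/-* replicate 1 (0.246), 2 (0.254), or 3 (0.120). With a library left out it lay between −2.30 and −1.74. Its adjusted p ranged from 2.74e-06 to 0.413 over 14 alternatives. With the replicate block, 5 genes were called in all and 0 lysosomal genes. Deviations of libraries with the same number correlated at −0.0218, 0.00782, and 0.0653, so the numbers were not taken as pairs. With 3 libraries a genotype, differences smaller than the 95% intervals were not resolved.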
